A study of Ursus arctos with 12 samples.

Results

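GADL1 and 7 other genes of carnosine and taurine metabolism were followed in thigh muscle of brown bears between the active period and hibernation. The genes were taken by symbol from the 30249 genes of the count table. They were GADL1, CARNS1, CARNMT1, CNDP2, SLC15A4, SLC6A6, CDO1 and CSAD. All 8 were found, and 8 of 8 passed the filter of 30 reads summed over the libraries, which left 17290 genes.

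The 12 libraries came from skeletal muscle (vastus lateralis) biopsies of 6 free-ranging brown bears (Ursus arctos) aged 2 to 3 years. Each bear was sampled in winter, hibernating, and in summer, active, so that every winter library has a summer library of the same animal. Hibernating bears neither eat nor move for months, and season, fasting and inactivity cannot be told apart in this design. Each library is a single biopsy of mixed tissue. Libraries held 16742406 to 32140160 reads on genes, and the winter library of bear 1509 was the smallest. The muscle markers ACTA1, CKM, DES, TTN and MB together reached 91527 to 158969 CPM (a gene's reads scaled to the size of its library) in summer. In winter they reached 96463 to 131631 CPM, and none of them was at 0 in any library. CKM held the largest part of the sum, which hides changes of single markers. MB was lower in winter in 6 of 6 bears and ACTA1 in 5, while TTN was higher in 6 of 6. CKM and DES went either way. Of all genes tested, 19% were lower and 18.4% higher in 6 of 6 bears.

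Carnosine is a dipeptide of beta-alanine and histidine that muscle holds as a pH buffer. GADL1 is a decarboxylase that can supply beta-alanine from aspartate, CARNS1 joins beta-alanine to histidine, CARNMT1 methylates carnosine to anserine, and CNDP2 is a cytosolic dipeptidase. Taurine, an osmolyte of muscle, is made from cysteine by CDO1, which forms cysteine sulfinic acid, and CSAD, which decarboxylates it, and is taken up from blood by SLC6A6, a transporter that also carries beta-alanine. SLC15A4 is a lysosomal transporter of histidine and small peptides.

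The members were selected on the difference between winter and summer in these same libraries. Their season values are therefore given as a description, without p values. Levels are CPM scaled by edgeR's TMM method. A fold change is the winter/summer ratio fitted by edgeR with season as its only term, given as log2 with its standard error (SE). A gene counts as called at a Benjamini-Hochberg adjusted p below 0.05 over all 17290 genes in edgeR's quasi-likelihood test. Of the 8 members, 6 were called lower in winter and 0 higher, in a table where 19.9% of all genes were called lower, 19.6% higher and 39.5% in either direction. With bear added to the fit as a block, 21.2% of all genes were called lower. The number higher was also 0 at an unadjusted p below 0.05, in DESeq2 and in limma voom. The median log2 fold change of the members was −1.11, beside −0.002 over all genes tested. As a bulk measure, a lower level can mean fewer cells of a type or less RNA per cell, and these cannot be told apart.

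GADL1, which can supply beta-alanine, showed the widest gap of the members. In summer its level ran from 56.5 to 109 CPM with a median of 71.5, and in winter from 1.09 to 20.1 with a median of 2.23. The highest winter library lay below the lowest summer library, as was the case for 8.21% of all genes tested, while 9.12% did not overlap in the other direction and 17.3% in either. In reads, the summer libraries held 1358 to 2521 and the winter libraries 26 to 364. On the log2 CPM scale summer stood at 6.21 ± 0.34 and winter at 1.68 ± 1.55 (SD, n = 6).

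The spread of GADL1 in winter was thus far wider than in summer. Bears 1305, 1316, 1317 and 1512 stood at 1.09 to 2.70 CPM, bear 1511 at 5.96 and bear 1509 at 20.1. Within single bears the summer level was 55.0-fold the winter level in bear 1316, 44.9-fold in bear 1305, 39.3-fold in bear 1317 and 30.7-fold in bear 1512. The ratio was 13.0 in bear 1511 and 3.94 in bear 1509. GADL1 was lower in winter in 6 of 6 bears, as were 19% of all genes tested, with the smallest ratio in bear 1509 and the largest in bear 1316.

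The fitted log2 fold change of GADL1 was −3.81 (SE 0.63), a 14.0-fold lower level in winter, and ranked 32 from the largest fall among 17290 genes. With a replicate block for bear it was −4.51 (SE 0.48), and without the winter library of bear 1509 it was −4.92 (SE 0.40).

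**Figure D1:**
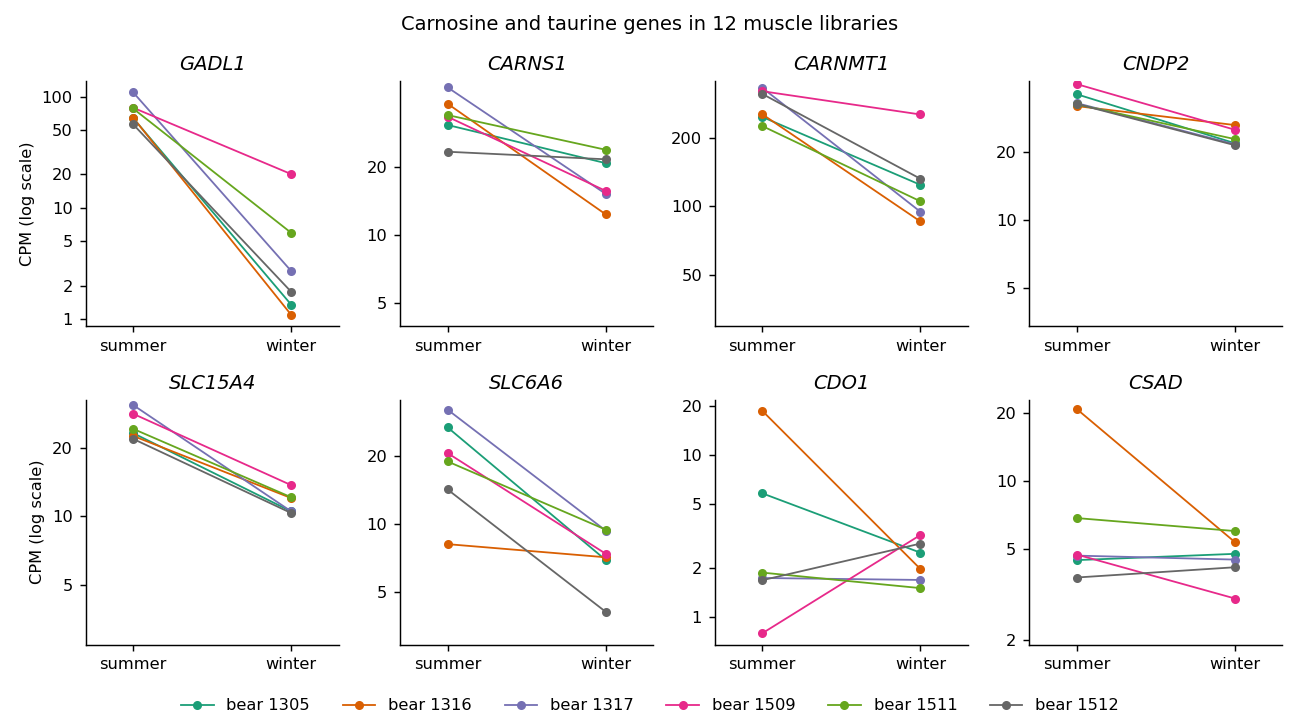
Level of each of the 8 genes in CPM on a log scale in summer and winter, with a line for each of the 6 bears. GADL1 fell in every bear but kept 20.1 CPM in the winter library of bear 1509, while CDO1 and CSAD were high in the summer library of bear 1316 (18.7 and 20.7 CPM), and CDO1 differed between seasons in either direction in the other bears.

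CARNS1, the carnosine synthase, was at 23.2 to 44.6 CPM in summer (median 33.4) and 12.3 to 23.7 in winter (median 18.2). The seasons overlapped in a narrow range, since the winter library of bear 1511 lay just above the summer library of bear 1512. The fitted log2 fold change was −0.90 (SE 0.18). Single bears ran from −1.61 in bear 1316 to −0.11 in bear 1512, the bear with the least CARNS1 in summer.

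CARNMT1, the carnosine methyltransferase, had 1678 to 7986 reads per library. Its level was 226 to 333 CPM in summer (median 283) and 85.6 to 253 in winter (median 115). Only the winter library of bear 1509, at 253 CPM, reached the summer range, and the other winter libraries stood at 85.6 to 132. The log2 fold change was −1.09 (SE 0.23), and −1.38 (SE 0.15) without that library. CARNMT1 and GADL1 thus both had their smallest difference between seasons in bear 1509, at −0.34 and −1.98 on the log2 CPM scale.

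CNDP2, the dipeptidase, varied least between bears. It was at 31.7 to 39.6 CPM in summer (median 32.6) and 21.3 to 26.2 in winter (median 22.2), without overlap. CNDP2 had a log2 fold change of −0.56 (SE 0.09), the smallest of the members called, with single bears from −0.72 to −0.28. The standard deviation of its difference over bears, 0.156 on the log2 scale, was below that of most genes, at percentile 3.71 of all genes tested. For GADL1 the same standard deviation was 1.45, at percentile 96.5.

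The transporters were both lower in winter in 6 of 6 bears. SLC15A4 was at 22 to 31.0 CPM in summer (median 23.8) and 10.4 to 13.7 in winter (median 11.3), with no overlap. The fit gave a log2 fold change of −1.13 (SE 0.12), and single bears stood from −1.55 to −0.91. GADL1, CNDP2 and SLC15A4 were the 3 of 8 members whose seasons did not overlap, beside 8.21% of all genes tested that were lower without overlap.

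SLC6A6, the taurine transporter, was at 8.16 to 31.9 CPM in summer (median 19.7) and 4.10 to 9.45 in winter (median 7.27). The overlap came from the summer library of bear 1316 at 8.16 CPM, while the other summer libraries stood at 14.2 to 31.9. The log2 fold change was −1.45 (SE 0.29), and −1.61 (SE 0.23) without that library. Bear 1316 differed by −0.19 between seasons, and the other bears by −1.93 to −0.99.

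The enzymes that make taurine from cysteine were not called. CDO1 was a low count in this muscle, with 18 to 393 reads per library. Its level was 0.79 to 18.7 CPM in summer (median 1.81) and 1.5 to 3.20 in winter (median 2.23). The summer library of bear 1316 stood highest, followed by that of bear 1305 at 5.79 CPM, and the other summer libraries were at 0.79 to 1.88. The log2 fold change was −1.15 (SE 0.63), with 4 bears lower and 2 higher in winter. It was −0.39 (SE 0.55) with a replicate block for bear and −0.06 (SE 0.41) without the summer library of bear 1316.

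CSAD showed the same library apart. It was at 3.76 to 20.7 CPM in summer (median 4.72) and 3.04 to 6.02 in winter (median 4.64). The highest value was again the summer library of bear 1316, and the other summer libraries lay at 3.76 to 6.86. The log2 fold change was −0.70 (SE 0.38), with 4 bears lower and 2 higher, and −0.08 (SE 0.20) without that library. Neither gene was called under any of the 16 alternative fits.

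**Figure D2:**
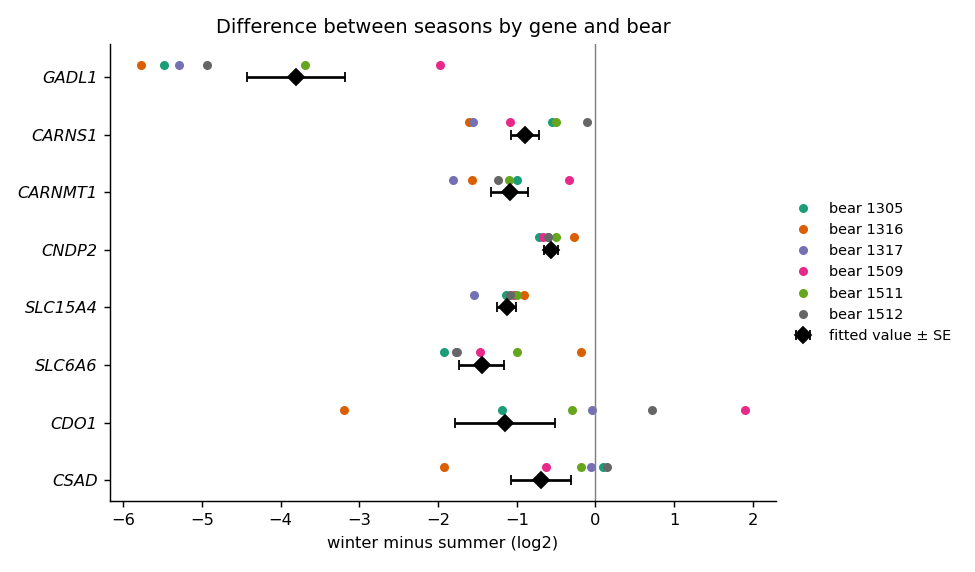
Winter minus summer on the log2 scale for each gene, with the edgeR log2 fold change and its standard error as black diamonds and the log2 CPM difference of each of the 6 bears as coloured points. The 6 called genes lie below 0 in every bear, as do 19% of all genes tested, whereas CDO1 runs from −3.19 to 1.91 and CSAD from −1.93 to 0.15.

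Most adipocyte markers, but not all, were highest of the summer libraries in that of bear 1316. The sum over ADIPOQ, PLIN1, LEP, CIDEC, FABP4, PLIN4 and CFD was 1586 CPM there, and 480 to 680 CPM in the other summer libraries. FABP4 alone held 889 CPM of that sum. PLIN4 (207.2 CPM) and LEP (0.10 CPM) did not stand apart, with 207.3 and 0.15 CPM in the summer library of bear 1305. In winter the sum was 317 to 780 CPM. FABP4 (186 to 284 CPM) and PLIN4 (91.3 to 316 CPM) made up most of it in every bear, and ADIPOQ held 5.67 to 148 CPM. In the summer library of bear 1316, ADIPOQ, an adipocyte hormone, was at 348 CPM and PLIN1, a lipid droplet protein, at 74.4 CPM. The other summer libraries held at most 40.1 and 6.34 CPM of these genes. Only LEP had a library without a read. Bear 1511 had the highest adipocyte sum in winter (780 CPM), with 1.5 CPM of CDO1, the lowest winter value, and 6.02 CPM of CSAD, the highest. Between seasons 1 adipocyte marker, FABP4, was called lower and 1, LEP, higher, with at most 19 LEP reads in any library. LEP was not called with a block for bear (edgeR adjusted p = 0.0629), and limma voom called 0 adipocyte markers higher. The part of fat tissue in the CDO1 and CSAD values was not tested.

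Some fibroblast markers moved with GADL1. The sum of COL1A1, COL3A1, DCN, LUM and PDGFRA was 3062 to 7896 CPM in summer and 228 to 1282 CPM in winter, and 3 of the 5 were called lower. The collagens carried the sum in summer, with log2 fold changes of −4.59 for COL1A1 and −4.17 for COL3A1, and LUM stood at −1.93. In winter DCN, at 136 to 768 CPM, was the largest part of the sum in every bear but 1509. DCN, at −0.75, was not called (edgeR adjusted p = 0.0848) but was with a block for bear (adjusted p = 0.0104), and limma voom called 4 of the 5 lower. PDGFRA, at −0.49 (edgeR adjusted p = 0.0772), was not called with or without the block and was higher in winter in 2 bears. None of the 5 was at 0 in any library. The sum's highest winter libraries were those of bear 1511 (1282 CPM) and bear 1509 (1248 CPM), which also held the most GADL1 in winter. Different genes led the sum there, DCN in bear 1511 (768 CPM) and COL3A1 in bear 1509 (658 CPM). COL1A1, COL3A1 and LUM were each highest of the winter libraries in both bears. DCN in bear 1509 (314 CPM) lay below that in bear 1305 (321 CPM). The part of these cells in the GADL1 values was not tested. Most endothelial markers (4 of 5 called lower) and macrophage markers (3 of 5) were lower too, where 19.9% of all genes tested were called lower. TEK (−0.09, higher in 3 bears), CD163 (−0.45) and CD68 (−0.84) were not called. The endothelial sum was 577 to 916 CPM in summer and 381 to 449 in winter, without overlap. Of single genes tested, 8.21% were lower without overlap. The macrophage sum was 69.1 to 115 CPM in summer and 37.6 to 70.7 in winter.

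**Figure D3:**
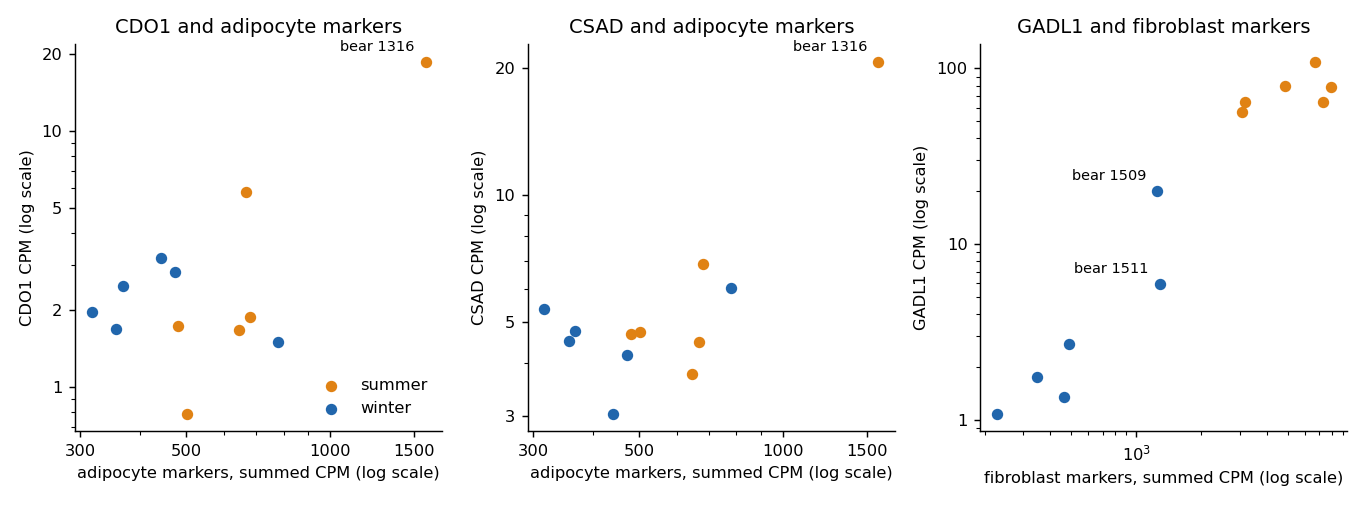
CDO1 and CSAD against summed adipocyte markers, and GADL1 against summed fibroblast markers, in CPM on log scales, with 1 point per library. The summer library of bear 1316 stands apart in the first panels, at 1586 CPM of adipocyte markers. In the last panel bears 1509 and 1511 hold the most of both among the winter libraries, below every summer library. DCN was the largest part of the winter fibroblast sum in every bear but 1509.

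Carnosine is held mainly by fast fibres, so fibre markers are given beside CARNS1 and CARNMT1. The fast fibre sum was 33060 to 69120 CPM in summer and 39099 to 48291 CPM in winter. Of its 7 genes, ACTN3, a Z-disc protein, and ATP2A1, the fast calcium pump, were called lower and 0 higher (0 at an unadjusted p below 0.05, 0 in DESeq2). The log2 fold change was −0.75 for ACTN3 and −0.53 for ATP2A1. Of all genes tested, 19.9% were called lower. The slow fibre sum was 11491 to 23698 CPM in summer and 13162 to 19930 CPM in winter, with 1 of 6 markers called, ATP2A2, lower. The part of fibre type in the CARNS1 and CARNMT1 values was not tested.

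Whether the bears kept their order over both seasons is a measure that does not rest on the season difference. It was tested by the bear terms of an edgeR fit with bear and season, in which 0.688% of all genes were called. Of the members, 0 were called, 3 had an unadjusted p below 0.05 and DESeq2's likelihood ratio test called 1, where it called 4.87% of the genes to which it gave an adjusted p. These 3 were CSAD, GADL1 and CARNMT1, with adjusted p of 0.296, 0.407 and 0.426 in edgeR's quasi-likelihood test. The gene called by DESeq2 was CSAD, at an adjusted p of 0.0345. In edgeR the unadjusted p of CSAD was 0.0191 with all bears and 0.137 without bear 1316. For the other members edgeR's adjusted p lay between 0.433 and 0.936. With 2 libraries per bear, a difference between bears that held over both seasons was not detected by edgeR for any member. In simulated data edgeR called only 60% of the 200 genes given a bear SD of 1 log2, none of which had low counts.

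The 5 genes whose course over the 12 libraries lay closest to GADL1 were COL3A1, C1QTNF3, ADAMTS2, COL1A2 and OXCT1. Likeness was the root mean square difference of log2 CPM after each gene's mean was removed, over 10337 genes with a symbol and a mean of at least 1 log2 CPM. Season was not removed, so the measure rests largely on the fall between seasons by which GADL1 was selected, and it is given as a description. COL3A1, a fibrillar collagen, came first at 0.461, followed by C1QTNF3 (0.490), ADAMTS2, which trims procollagen (0.517), COL1A2 (0.623) and OXCT1, the enzyme that opens ketone body use (0.666). Their log2 fold changes were −4.17, −3.52, −3.73, −3.74 and −3.55. The other members, with smaller falls, stood at 1.85 for CARNMT1 to 2.57 for CDO1. Without bear 1509, 4 of the 5 genes stayed among the nearest 5 and COL1A1 took the place of OXCT1.

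Beyond the members, 61 genes of neighbouring pathways were listed by function, of which 52 were tested. The lists were chosen with earlier results of these data known, so counts of their calls are a description. In edgeR 6 of them were called higher and 15 lower in winter, where the shares of all genes tested were 19.6% and 19.9%, and their median log2 fold change was −0.27, beside −0.002 over all genes tested. A replicate block for bear gave 7 higher and 16 lower.

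The list of cysteine supply and sulfur oxidation held the most calls, with 7 of 9 lower and 0 higher (0 at an unadjusted p below 0.05, 0 in DESeq2 and 0 in limma voom), beside 19.9% of all genes called lower. DESeq2 also called 7 lower and limma voom 6. The median log2 fold change of the list was −0.87. CTH, which releases cysteine from cystathionine, was at 0.79 to 2.19 CPM in summer and 0.11 to 0.55 in winter, a log2 fold change of −2.25 (SE 0.37, edgeR adjusted p = 0.000387). MPST, which takes sulfur from mercaptopyruvate, was at 13.1 to 22.5 CPM in summer and 3.42 to 4.69 in winter. MPST had a log2 fold change of −2.10 (SE 0.15, edgeR adjusted p = 1.99e-06). TST, a mitochondrial sulfurtransferase, was at 9.43 to 22.7 CPM in summer and 2.65 to 5.72 in winter, at −1.96 (SE 0.26, edgeR adjusted p = 9.03e-05). These 3 genes were lower in 6 of 6 bears and did not overlap between seasons. Of all genes tested, 19% were lower in 6 of 6 bears and 8.21% were lower without overlap. CTH rests on 2 to 55 reads per library.

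The other called genes of this list are named after their values were seen. They were GOT1 (log2 fold change −1.78), the cytosolic aspartate aminotransferase, its mitochondrial partner GOT2 (−0.67), the sulfite oxidase SUOX (−0.87) and the persulfide dioxygenase ETHE1 (−0.54). GOT1 went from 518 to 631 CPM in summer to 127 to 221 in winter. ETHE1 was close to the threshold, with an edgeR adjusted p of 0.0343. That p was 0.0798, 0.114, 0.108 and 0.0624 without bear 1305, 1316, 1509 or 1511, 0.0679 without the summer library of bear 1316, 0.0577 without the winter library of bear 1509 and 0.0514 in limma voom. CBS and SQOR were not called, at −0.87 (SE 0.43) and −0.30 (SE 0.19).

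Among the other taurine genes, calls went in both directions. FMO1, a monooxygenase that can oxidise hypotaurine to taurine, was at 3.13 to 11.1 CPM in summer and 8.78 to 33.8 in winter. This was a log2 fold change of 1.41 (SE 0.32, edgeR adjusted p = 0.00313), higher in 6 of 6 bears. ADO, which makes hypotaurine from cysteamine, was at 14.2 to 19.0 CPM in summer and 18.8 to 24.3 in winter. The log2 fold change of ADO was 0.34 (SE 0.11, edgeR adjusted p = 0.0214), also higher in 6 of 6 bears, but the adjusted p was 0.0819 without bear 1305 and 0.0561 with library totals as the scaling. SLC6A13, a carrier of GABA and taurine, was called lower on 0 to 10 reads per library. Its edgeR adjusted p of 0.0385 was 0.118, 0.0925 and 0.0925 without bear 1316, 1317 or 1512, and 0.0619 without the summer library of bear 1316. It was also not called in DESeq2 (adjusted p = 0.0584), in DESeq2 with a block for bear (0.11) or in edgeR without the read filter (0.0552). GGT5, higher in 5 of 6 bears at 0.72 (SE 0.30, edgeR adjusted p = 0.0679), was called only in some alternatives. These were the replicate block (adjusted p = 0.0303), DESeq2 with and without that block, and the fits without bear 1509 or its winter library.

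Of the genes of beta-alanine supply and use, ALDH6A1, a mitochondrial dehydrogenase of the semialdehyde formed from beta-alanine, was lower in winter. It was at 176 to 218 CPM in summer and 62.4 to 113 in winter, a log2 fold change of −1.22 (SE 0.13, edgeR adjusted p = 1.89e-05). ABAT, which transaminates beta-alanine, stood at −0.17 (SE 0.17), and DPYD, the first enzyme of uracil breakdown, at −0.17 (SE 0.23). GAD1, a glutamate decarboxylase related to GADL1, was called higher, but its reads came almost wholly from 1 library. The winter library of bear 1509 held 133 GAD1 reads (7.34 CPM) and that of bear 1511 held 3, while the other 10 libraries were at 0. Its edgeR adjusted p was 0.048, and 0.0603 to 0.0737 without any single bear other than 1509, and 0.0637 without the summer library of bear 1316. Without bear 1509 it no longer passed the read filter, and limma voom gave an adjusted p of 0.332. GAD2, of the same list, was below the read filter, and its 20 reads all came from the winter library of bear 1509. That library was the smallest but had reads on the most genes (19512).

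Of the genes of histidine and its dipeptides, SLC15A2, a peptide transporter, was called higher. It had 0 to 2 reads in summer and 3 to 12 in winter, higher in 6 of 6 bears (edgeR adjusted p = 0.0017). CNDP1, the serum carnosinase, had 68 reads over all libraries and was not called. HNMT, which methylates histamine, was at −0.18 (SE 0.29) and not called.

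**Figure D4:**
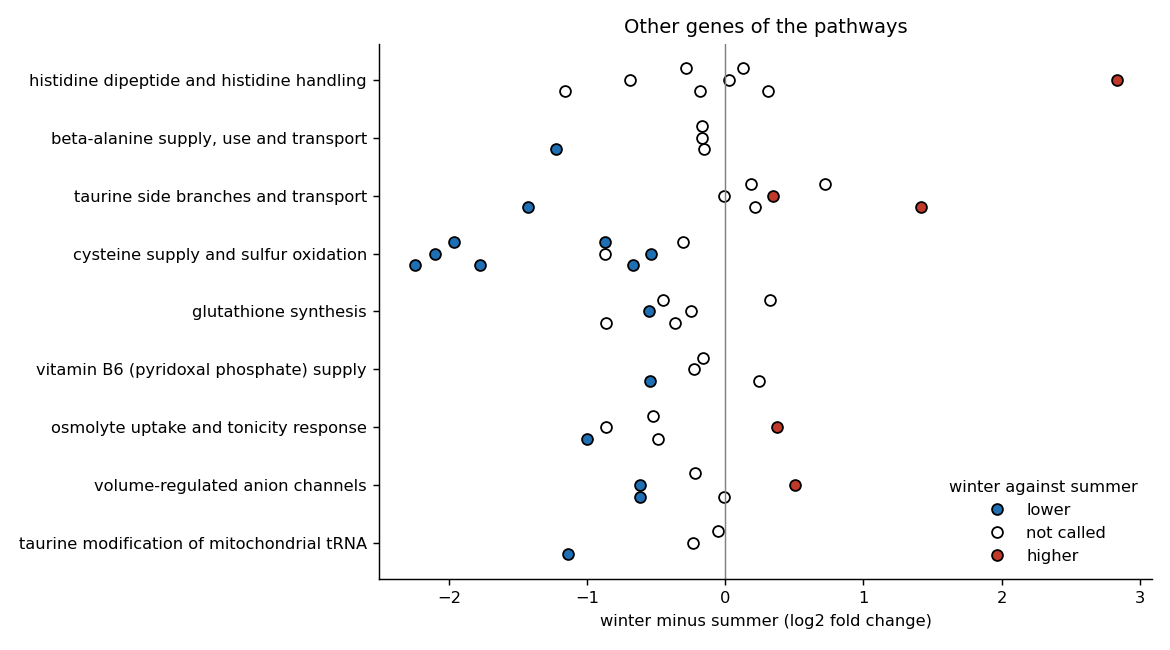
Log2 fold change (winter against summer) of the tested genes of 9 pathway lists that are not members, with blue points called lower, red points called higher and white points not called. GAD1 is left out because its summer libraries were all at 0. The list of cysteine supply and sulfur oxidation lies below 0 for all 9 genes, from −2.25 to −0.30.

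The cofactor, osmolyte and tRNA lists held few calls each. PDXK, which phosphorylates vitamin B6 to the cofactor used by GADL1 and CSAD, was at 23.4 to 32.5 CPM in summer and 15.2 to 25.9 in winter. PDXK had a log2 fold change of −0.54 (SE 0.13, edgeR adjusted p = 0.00417), and the other 3 genes of its list were not called. AKR1B1, which makes the osmolyte sorbitol, stood at −1.0 (SE 0.16, edgeR adjusted p = 0.000287). NFAT5, the factor that drives osmolyte carriers under high tonicity, stood at 0.38 (SE 0.12, edgeR adjusted p = 0.02). It was higher in 5 of 6 bears, and was not called without bear 1305 (adjusted p = 0.0791), without bear 1509 (0.0658) or with library totals (0.098). MTO1, which takes part in placing taurine on mitochondrial tRNA, stood at −1.14 (SE 0.20, edgeR adjusted p = 0.000548), with 44.2 to 65.9 CPM in summer and 17.1 to 38.0 in winter. Its partner GTPBP3 (−0.24, SE 0.25) and TRMU (−0.05, SE 0.13) were not called.

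LRRC8 proteins form the channels through which swollen cells release taurine. LRRC8C and LRRC8D were lower in winter, at −0.62 (SE 0.17, edgeR adjusted p = 0.0101) and −0.61 (SE 0.19, edgeR adjusted p = 0.0188). LRRC8B was higher, at 0.50 (SE 0.15, edgeR adjusted p = 0.0183), and LRRC8A, the subunit every such channel needs, was not called at −0.22 (SE 0.19). The adjusted p of LRRC8B was 0.0661 without bear 1305, 0.0764 without bear 1512 and 0.0624 with library totals. That of LRRC8D was 0.0596, 0.0739 and 0.0587 without bear 1316, 1317 or 1511. In the glutathione list, which draws on the same cysteine, GCLC, the catalytic subunit of the first enzyme, was lower at −0.55 (SE 0.15, edgeR adjusted p = 0.0112), though its adjusted p was 0.0568 without bear 1512. GSS, lower in 6 of 6 bears at −0.36 (SE 0.14, edgeR adjusted p = 0.058), was called once bear was a block in the fit (adjusted p = 0.0207), in DESeq2 with that block (0.024) and with library totals (0.0306).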

How the data were processed

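The authors sequenced stranded poly-A libraries (single reads of 50 bases), aligned them with TopHat to ASM358476v1, counted reads per gene by strand with featureCounts and deposited the raw counts. The submitters' processing notes give TopHat2 2.1.1 and featureCounts 1.6.2. Software used here was R 4.3.3, DESeq2 1.42.0, limma 3.58.1 and edgeR 4.0.16. Only genes with at least 30 reads in all 12 libraries together were tested, and TMM scaling, glmQLFit and glmQLFTest were used with season as the only term. log2 CPM carries a prior count of 2. The members and gene lists were chosen with earlier results of these data known. The text names the members, up to 3 called rises and 3 called falls of each pathway list, and the 5 genes nearest to GADL1 by rule. Pathway genes that were not called, and called genes beyond these, were named after their values were seen, and markers where their list moved with a result. Alternatives were a replicate block for bear, DESeq2, limma voom, RLE or library totals, other filters, a stricter threshold and each bear left out. The summer library of bear 1316 and the winter library of bear 1509 were left out after seeing the data.

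Winter and summer libraries of a number come from the same animal, by the labels and the methods. After the mean of each season was removed, libraries of 1 bear correlated at 0.0903 to 0.344. Those of different bears correlated at −0.214 to 0.142, with a median of −0.0634, so the ranges overlapped. No library repeated another of its season (lowest chi-square per gene 30.2, where counting noise gives about 1). In simulated data for winter against summer over 17290 genes, edgeR called 65.3% of the 2-fold changes and 95.1% of the 4-fold changes. Only 200 genes were changed there, none of them at low counts, whereas 39.5% of genes were called in the data. These shares need not hold for the data or for genes with few reads. The table gives no gene lengths, so levels were not compared between genes.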

Additional observations from a re-analysis of the deposited data

Results flagged for a closer look

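Single libraries that stood apart were looked for with Dixon's ratio at its 95% critical value, taken over the 6 bears in 1 season, as the distance of the extreme library from its neighbour over the whole range. Of 84 groups of libraries examined, 7 passed, where chance alone passes about 1 in 20. CSAD in the summer library of bear 1316 stood at 4.38 log2 CPM, with the others at 1.94 to 2.80 (gap over range 0.649). In the same library the summed adipocyte markers stood at 10.6 on the log2 CPM scale, with the others at 8.91 to 9.41 (0.709). In the winter library of bear 1509, GAD1 stood at 2.89 log2 CPM, with the others at −3.53 to −1.90 (0.747), and OXCT1 at 5.38, with the others at 2.16 to 2.73 (0.823). SLC6A6 in the winter library of bear 1512 lay below the others, at 2.07 against 2.81 to 3.25 log2 CPM (0.629). PDXK in the summer library of bear 1512 was at 4.55 against 4.86 to 5.03 log2 CPM (0.652), and LRRC8D in the summer library of bear 1305 at 2.19 against 2.80 to 2.98 log2 CPM (0.771).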

How the results depend on the processing

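The 6 members called lower were called lower in each of the 16 alternative fits, the replicate block included, and at the stricter threshold (adjusted p below 0.01 with a fold limit). CDO1 and CSAD were called in none of these fits. The fitted log2 fold change of GADL1 ran from −4.92 to −3.54 and that of CDO1 from −1.47 to −0.02. Pathway genes called higher numbered 6, and 3 with library totals, 2 at the stricter threshold and 2 to 6 with a bear or library left out (2 without bear 1305). Those called lower numbered 15, and 10 to 17 in the alternatives. Of the 21 called pathway genes, 13 were called in every alternative fit that held them and 0 changed direction. The stricter threshold is not part of that count, and LRRC8C (edgeR adjusted p = 0.0101) did not pass it. With a replicate block for bear, 7 pathway genes were higher and 16 lower, the added calls being GGT5 and GSS. Members with a bear effect numbered 1 in DESeq2's likelihood ratio test and 0 in edgeR. GAD1, CDO1, CTH, SLC6A13 and SLC15A2 are limited by their low read counts. Lanes are not in the labels, so a lane effect was not tested.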
